A study of Mus musculus with 8 samples.

Results

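Striatal projection neuron genes were read in brain tissue, whole brain by the study's design text, of wild-type mice and of mice labelled as lacking Nsun5, an RNA cytosine methyltransferase that acts on ribosomal RNA. The group held 9 genes, Drd1, Drd2, Penk, Tac1, Ppp1r1b, Rgs9, Pde10a, Adcy5 and Rarb, taken by gene name from a count table of 54532 genes, and each name matched 1 protein-coding gene. Both genotypes were 3-month-old male littermates under pentobarbital, with 5 mice named per genotype, and the knockout allele is not described in the sources used here. For each genotype there were 4 libraries of ribosome footprints (Ribo-seq, which sequences the stretches of RNA that ribosomes shield from nuclease) and 4 libraries of mRNA whose column names carried the same numbers. Libraries are called WT 1 to 4 and KO 1 to 4 below, by their labels. The labels did not tie a library to an animal, so every p-value measures only the spread between libraries, which may be technical.

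In the deposited table's annotation (mm10) the genes lie on 8 chromosomes. The receptors are Drd1 at chr13:54051183-54055705 (minus strand) and Drd2 at chr9:49340627-49408177 (plus), and the peptide precursors Penk at chr4:4133531-4138819 (minus) and Tac1 at chr6:7554879-7565834 (plus). Adcy5 lies at chr16:35154877-35305738 (plus), Pde10a at chr17:8525372-8986648 (plus) and Rarb at chr14:16430839-16819156 (minus). Ppp1r1b at chr11:98348404-98357796 (plus) and Rgs9 at chr11:109225355-109298129 (minus) share a chromosome. The table holds 1 count per gene and library, so no isoform was told apart.

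The striatum is built mostly of GABA-releasing projection neurons that receive dopamine from the midbrain and glutamate from cortex and thalamus. Neurons of the direct pathway carry the D1 dopamine receptor, which raises cyclic AMP, and release substance P, while neurons of the indirect pathway carry the D2 receptor, which lowers cyclic AMP, and release enkephalin. Both kinds share adenylyl cyclase 5, phosphodiesterase 10A, the phosphatase inhibitor DARPP-32 and the G protein regulator RGS9, so the genes describe a region and a signalling cascade at the same time.

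Start-site windows of these genes are shown first. Whether these sequences have a part in the mRNA levels described below was not tested. RefSeq windows from 250 bases before to 50 bases after a start site (GRCm38.p6) were matched by symbol for 7 of the 9 genes, in 9 windows. Capitals mark matches, on either strand, to 5 motifs searched: the direct repeat bound by retinoic acid receptors (with 5 free bases between its repeats), CACGTG (an E-box), CGTCA (the short form of a cyclic AMP response element), TATAAA (named TATA box) and GGGCGG (a GC box). The Rarb window, on the minus strand at chr14:16575427-16575726, lies inside the gene as the deposited table places it. The others printed are Tac1 on the plus strand at chr6:7554811-7555110, and the first Drd1 window (chr13:54055609-54055908, minus strand) and Drd2 (chr9:49340153-49340452, plus strand) as the pair that separates the pathways.
Rarb: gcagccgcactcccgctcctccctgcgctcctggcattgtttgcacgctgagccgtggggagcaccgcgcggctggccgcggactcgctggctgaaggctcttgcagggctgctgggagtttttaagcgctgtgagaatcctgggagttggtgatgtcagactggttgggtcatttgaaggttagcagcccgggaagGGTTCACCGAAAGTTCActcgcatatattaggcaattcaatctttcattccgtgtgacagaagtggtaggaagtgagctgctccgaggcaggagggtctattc
Tac1: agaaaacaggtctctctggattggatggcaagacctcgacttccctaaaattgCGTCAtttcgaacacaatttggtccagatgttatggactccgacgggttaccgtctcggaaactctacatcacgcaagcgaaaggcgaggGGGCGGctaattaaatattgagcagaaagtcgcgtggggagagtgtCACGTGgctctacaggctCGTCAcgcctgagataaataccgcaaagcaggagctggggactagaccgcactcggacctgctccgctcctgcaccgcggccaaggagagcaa
Drd1: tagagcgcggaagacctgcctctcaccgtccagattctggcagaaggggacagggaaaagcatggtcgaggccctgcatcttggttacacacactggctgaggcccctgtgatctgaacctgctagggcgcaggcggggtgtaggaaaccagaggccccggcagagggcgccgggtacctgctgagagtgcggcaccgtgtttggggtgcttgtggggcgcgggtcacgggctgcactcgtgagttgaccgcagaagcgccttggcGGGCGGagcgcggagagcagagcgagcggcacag
Drd2: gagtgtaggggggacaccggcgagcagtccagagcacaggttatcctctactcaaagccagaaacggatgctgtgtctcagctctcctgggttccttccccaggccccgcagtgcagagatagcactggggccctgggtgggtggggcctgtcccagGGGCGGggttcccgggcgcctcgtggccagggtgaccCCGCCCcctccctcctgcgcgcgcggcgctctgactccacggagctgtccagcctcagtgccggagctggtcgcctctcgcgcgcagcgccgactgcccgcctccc
The Rarb window holds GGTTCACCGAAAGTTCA, which begins 53 bases before the start site. The spelling searched was found in 2 of 32851 windows genome-wide (0.00609%). Its fixed letters are exactly those of the Rarb match, and other spellings of the repeat were not searched. The share therefore does not say how rare such repeats are or that Rarb stands out. Tac1 has an E-box 61 bases before its start and CGTCA at 197 and 43 bases before it, motifs held by 7.15% and 20.8% of all windows. None of the other windows of these genes holds those 3 motifs. A TATA box was found in the Rgs9 window, 195 bases before the start, against 13.6% of all windows. GC boxes were found in 8 of the 9 windows, all but that of Rarb, against 35.7% of all windows. GC content ran from 54.0% in Tac1 to 79.0% in Adcy5, against a median of 52.7% over all windows. A match describes letters in a window and does not show that a factor binds there.

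The mRNA libraries held 15642086 to 17829523 counts each, of which the 9 genes took 9715 to 38314. Footprint libraries held 586392 to 3493841 counts, 232530 to 1467410 of them in protein-coding genes, and 239 to 1205 fell in the 9 genes. Nsun5 itself did not separate the labels: its mRNA was 5.31 to 6.31 CPM (counts scaled to a common library size) in WT and 5.17 to 7.36 CPM in KO (log2 fold change 0.12 ± 0.15 (SE, n = 4 per group), adjusted p = 0.820, edgeR), so directions below rest on the labels alone. Of the cerebellar markers, Pcp2 and Gabra6 reached only 31 and 34 counts over all 8 mRNA libraries, and 1 and 0 counts in footprints. These are defining genes of Purkinje and granule cells. All 10 genes of the cerebellum list had mRNA counts, and they summed to 334 to 426 CPM in WT and 280 to 322 CPM in KO. Calb1 alone averaged 206 CPM in WT. Whether the libraries hold the whole brain was not tested. The labels give the tissue of each library as brain and no part of it. Along the first principal component of mRNA, which took 29.9% of the variance, WT 1 and WT 2 lay at -28.4 and -27.0 and the other 6 libraries between 5.80 and 15.9.

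Penk, the enkephalin precursor, was the most abundant of the 9 mRNAs per length, and Rarb, a retinoic acid receptor gene, the least. Levels between genes are given in RPKM, reads scaled by gene length and library size, from 2 tables that the authors normalised separately. In WT mRNA, Penk stood at 152 ± 69.9 RPKM (mean ± SD, n = 4 throughout) and Ppp1r1b, which encodes DARPP-32, at 116 ± 59.8. Adcy5 followed at 54.8 ± 19.1, Pde10a at 24.5 ± 12.3 and Tac1, the substance P precursor, at 21.8 ± 9.14 RPKM. The dopamine receptors were close, Drd2 at 19.3 ± 10.6 and Drd1 at 17.5 ± 9.52, with Rgs9 at 12.3 ± 7.19 and Rarb at 2.48 ± 1.14 RPKM. Ppp1r1b lay above Adcy5, Adcy5 above Pde10a, Drd1 above Rgs9 and Rgs9 above Rarb in 8 of 8 libraries, while Penk lay above Ppp1r1b and Pde10a above Tac1 in 7. Tac1 lay above Drd2 in 6 of 8 libraries and Drd2 above Drd1 in 4, so the levels of those 3 genes could not be ordered.

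In footprints the same genes stood at the top, but the middle of the order was compressed. Footprint RPKM divides by the same gene length as mRNA RPKM and not by coding length. Untranslated parts of a transcript may therefore shift this order, and their share in it was not tested. Penk was at 45.8 ± 12.3 RPKM in WT and Ppp1r1b at 21.9 ± 1.88, each above the next gene in all 8 libraries. Adcy5 (7.92 ± 2.48), Tac1 (7.17 ± 1.46), Drd1 (6.08 ± 0.761), Pde10a (5.84 ± 1.42) and Rgs9 (5.20 ± 1.39) could not be ordered against their neighbours, which they exceeded in 3, 5, 6 and 5 of 8 libraries. Drd2 footprints were lower, at 2.53 ± 0.672 RPKM, and lay below those of Rgs9 in 7 of 8 libraries. Rarb was last at 1.09 ± 0.553 RPKM. Drd1 and Drd2, side by side in mRNA, were thus apart in footprints, although Drd2 rested on 108 footprint counts in all.

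**Figure D1:**
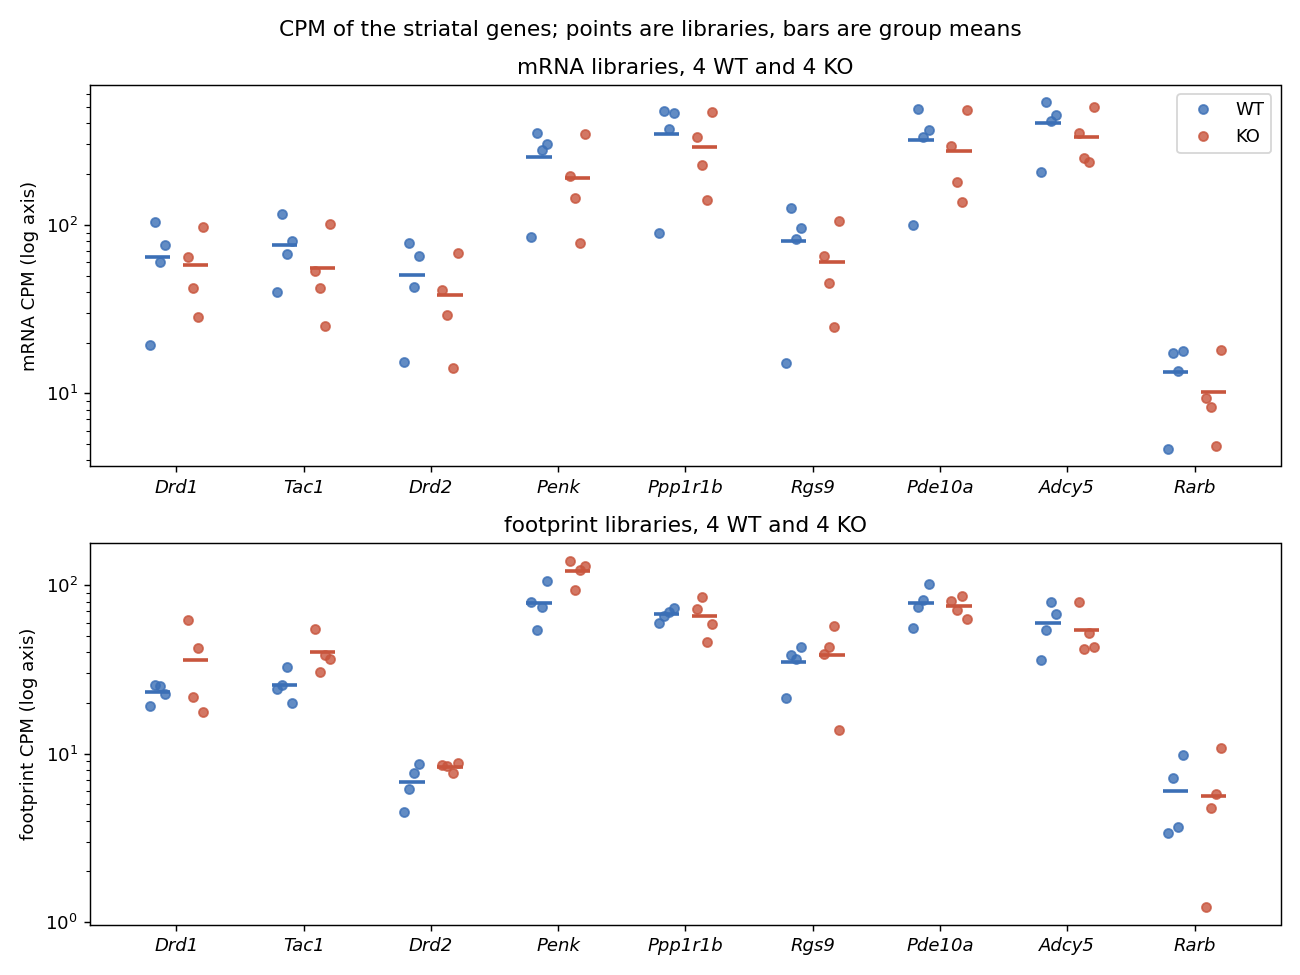
Levels of the 9 genes per library in CPM, on a log axis, in the mRNA and the footprint libraries, with WT and KO points side by side. CPM is not scaled by gene length, so the order of genes differs from that in RPKM. The highest WT mean is that of Adcy5 in mRNA (402 CPM) and of Pde10a in footprints (78.7 CPM, beside Penk at 78.4). Points spread more in mRNA than in footprints for every gene but Rarb.

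The mRNA comparison asked whether these transcripts differ in abundance between genotypes, and none of the 9 passed the test. All 9 estimates were below 0 in the libraries labelled KO, from -0.16 (Drd1) to -0.45 (Tac1) on the log2 scale, with a median of -0.39 against -0.01 over all 13058 genes tested, of which 51.4% were below 0. The spread within each genotype was larger than any of these differences: the mean level of the 9 genes ranged 4.44-fold among the WT libraries and 3.65-fold among the KO libraries, while KO averaged 0.818 times WT. In bulk tissue, fewer cells of a type and less RNA per cell cannot be told apart.

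Among the released peptides, Penk mRNA was 84.4, 349, 278 and 302 CPM in WT 1 to 4 and 195, 144, 77.7 and 346 CPM in KO 1 to 4. The groups overlapped, with WT 1 and KO 3 low and WT 2 and KO 4 high. The change was -0.41 ± 0.46 (log2 ± SE, adjusted p = 0.797, edgeR). Tac1 mRNA was 39.9, 116, 67.1 and 79.9 CPM in WT 1 to 4 and 53.0, 42.2, 24.9 and 101 CPM in KO 1 to 4. The same libraries were at its extremes and the groups overlapped (log2 change -0.45 ± 0.40, adjusted p = 0.726, edgeR).

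The dopamine receptors showed the same order of libraries at the extremes. Drd1 mRNA was 19.2, 103, 60.4 and 76.3 CPM in WT 1 to 4 and 64.0, 42.0, 28.2 and 97.0 CPM in KO 1 to 4, a 5.37-fold range over the 8 libraries. Drd2 mRNA was 15.3, 77.6, 42.6 and 65.4 CPM in WT 1 to 4 and 41.2, 29.3, 14.2 and 68.0 CPM in KO 1 to 4, a 5.47-fold range. For both receptors WT 1 and KO 3 were lowest, WT 2 and KO 4 highest, and the groups overlapped. The changes were -0.16 ± 0.46 for Drd1 (95% interval -1.18 to 0.85) and -0.39 ± 0.49 for Drd2 (-1.49 to 0.70), with adjusted p = 0.929 and 0.822 (edgeR).

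Downstream of the receptors, Adcy5 encodes the main striatal enzyme that makes cyclic AMP. Its mRNA was 206, 534, 414 and 452 CPM in WT 1 to 4 and 353, 249.6, 236 and 500.2 CPM in KO 1 to 4, the narrowest range of the 9 genes at 2.59-fold. Pde10a, whose enzyme breaks cyclic nucleotides down, was at 99.1, 485, 334 and 365 CPM in WT 1 to 4 and 295, 181, 136 and 480.1 CPM in KO 1 to 4. Both genes overlapped between the groups (log2 changes -0.26 ± 0.29 and -0.23 ± 0.46, adjusted p = 0.792 and 0.893, edgeR). Ppp1r1b, whose product inhibits protein phosphatase 1 once protein kinase A has phosphorylated it, was at 89.1, 472, 369.8 and 459.8 CPM in WT 1 to 4 and 332, 227, 141 and 465 CPM in KO 1 to 4. Rgs9, which speeds the shutdown of G protein signals, was at 15.2, 126, 82.7 and 95.8 CPM in WT 1 to 4 and 65.0, 44.96, 24.7 and 105 CPM in KO 1 to 4. Its 8.28-fold range was the widest of the 9 genes, with WT 1 lowest. The changes were -0.25 ± 0.47 for Ppp1r1b and -0.41 ± 0.54 for Rgs9 (adjusted p = 0.884 and 0.831, edgeR).

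Rarb encodes the retinoic acid receptor beta, a nuclear receptor of striatal neurons. Its mRNA was 4.66, 17.2, 13.5 and 17.8 CPM in WT 1 to 4 and 9.33, 8.30, 4.86 and 18.0 CPM in KO 1 to 4. WT 1 and KO 3 were again lowest, and here WT 4 and KO 4 were highest. The change was -0.39 ± 0.43 (adjusted p = 0.792, edgeR).

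Groups were without overlap in 0 of the 9 genes, against 5.59% of all genes. No member passed an adjusted p of 0.05, and neither did any other gene (0.0% of 13058 tested). At an unadjusted p under 0.05, 0 of the 9 genes passed against 10.5% of all genes (1377), and DESeq2 called 75 genes (0.574%), none of them a member. The standard errors of the 9 genes had a median of 0.46, against 0.11 over all genes, and their 95% intervals reached down to -1.61 (Rgs9) and up to 0.85 (Drd1). Single libraries moved the median of the 9 genes from -0.83 (without KO 4) and -0.66 (without WT 1) to -0.21 (without WT 4), -0.13 (without KO 3) and -0.11 (without WT 2), and 7 to 9 of the 9 estimates stayed below 0. Without both WT 1 and WT 2, the libraries that stood apart in the principal components, the median was -0.50.

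**Figure D2:**
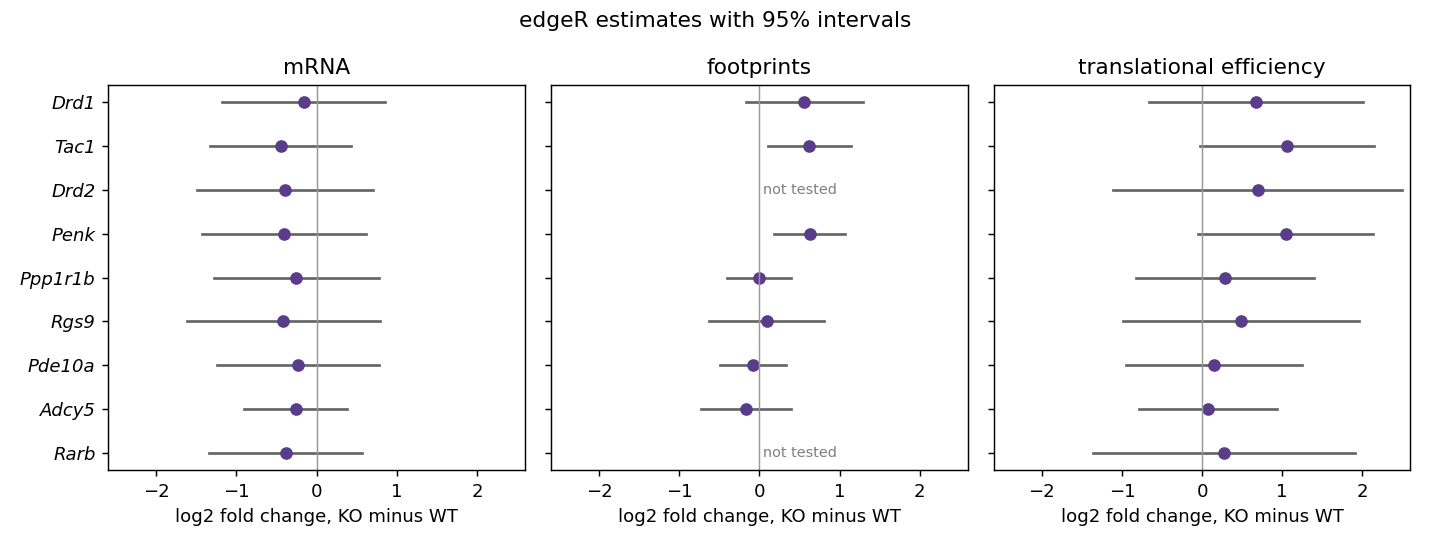
Log2 fold change of KO over WT for each of the 9 genes with 95% intervals, in mRNA, in footprints and in translational efficiency. In mRNA every point lies left of 0 with an interval across it, in footprints the intervals of Penk and Tac1 lie wholly right of 0, and in translational efficiency every point lies right of 0 with an interval across it.

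The pattern that the 9 mRNAs shared ran between libraries of the same genotype. WT 1 and KO 3, one library of each genotype, were the lowest pair in 9 of 9 genes, against 5.32% of all genes tested. WT 2 and KO 4 were the highest pair in 8 of 9, all but Rarb, against 4.33% of all genes. The mean log2 deviation of the 9 genes from their own averages was -1.26, 0.89, 0.34 and 0.62 in WT 1 to 4. It was 0.09, -0.39, -1.07 and 0.80 in KO 1 to 4. The widest gap, from WT 1 to WT 2, thus lay within a genotype. The standard deviation of the 9 genes over libraries, with genotype set aside, was 0.53 to 1.08 log2 units, above that of 94.9% to 99.4% of genes, whose median was 0.16.

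**Figure D3:**
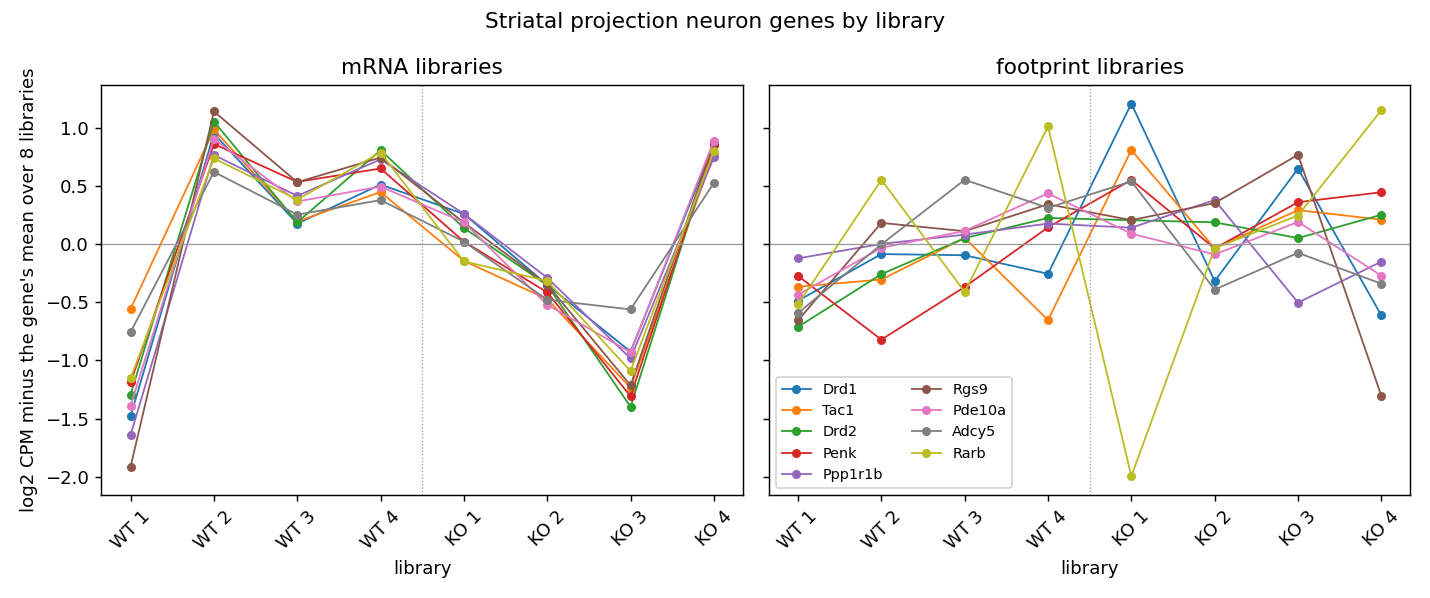
Log2 deviation of each of the 9 genes from its own mean, per library, in mRNA and in footprints. In mRNA the lines run together, with WT 1 and KO 3 at the bottom and WT 2 and KO 4 at the top, and in footprints they do not follow that course.

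Genes with the most similar course over the 8 mRNA libraries were sought among 11536 protein-coding genes by the root mean square difference between deviation profiles. The closest to the mean of the 9 genes was Nexn, which encodes an actin-binding protein, at 0.0900 log2 units. It was followed by Rasd2 (0.179), a small GTPase gene of striatal neurons, Prkch (0.181), a protein kinase C gene, Gng7 (0.183), which encodes the G protein gamma subunit of striatal receptors, and Lrrc10b (0.184). The median over all genes was 0.791. The 9 genes themselves lay between 0.104 (Pde10a) and 0.304 (Adcy5). Taken singly, Drd1 and Pde10a were each other's nearest gene (0.102), as were Penk and Rarb (0.135). Drd2 was nearest to Nexn (0.144), Ppp1r1b and Rgs9 to Lrrc10b (0.121 and 0.160), Tac1 to Dach1 (0.125) and Adcy5 to Tmem158 (0.0932). These distances are descriptions over 8 libraries.

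Few markers of other cells shared that order of libraries. Among markers tested in mRNA, WT 1 and KO 3 were the lowest pair for 2 of 7 striatal interneuron genes, Chat and Slc5a7 of cholinergic neurons, and for 0 genes of the cortex, hippocampus, thalamus, hypothalamus, cerebellum, dopamine neuron, glial, vascular and choroid plexus lists. Slc18a3, also a cholinergic gene of that list, was lowest in KO 3 (0.623 CPM) and KO 2 (0.949), with WT 1 at 1.06. Chat, Slc5a7 and Slc18a3 were singled out after their values were seen. Dopamine neuron markers, all 6 of them detected, summed to 260 CPM in WT 1, the library lowest in striatal genes, against 62.7 to 94.7 CPM in the other WT and 59.2 to 106 CPM in the KO libraries. Slc6a3, the dopamine transporter gene, had 1302 counts in WT 1 and 2 to 229 in the other libraries. KO 3, also low in striatal genes, had 4 counts of Slc6a3. Cortical markers were all detected and summed to 1343 to 1860 CPM in WT and 1804 to 2332 CPM in KO, with 10 of 10 estimates above 0. Oligodendrocyte markers summed to 7200 to 7883 CPM in WT and 4660 to 6427 CPM in KO without overlap, with 10 of 10 estimates below 0, while no adjusted p passed. Hypothalamic markers, all 10 detected, varied most within WT, at 144, 94.997, 64.6 and 8.18 CPM in WT 1 to 4 against 5.58 to 13.8 CPM in KO, with 6 of 6 estimates below 0. Choroid plexus and ependyma markers, all 8 detected, summed to 318 to 1147 CPM in WT and 53.5 to 1167 CPM in KO, with 8 of 8 estimates below 0. Those directions are of mRNA. In footprints hypothalamic markers summed to 5.58 to 77.0 CPM in WT and 73.9 to 122 CPM in KO, with 2 of 2 estimates above 0. Cortical footprint estimates were below 0 for 8 of 9 genes and oligodendrocyte ones for 10 of 10. Choroid plexus and ependyma footprints had 1 estimate below and 1 above 0. The part of these markers in the striatal values was not tested.

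**Figure D4:**
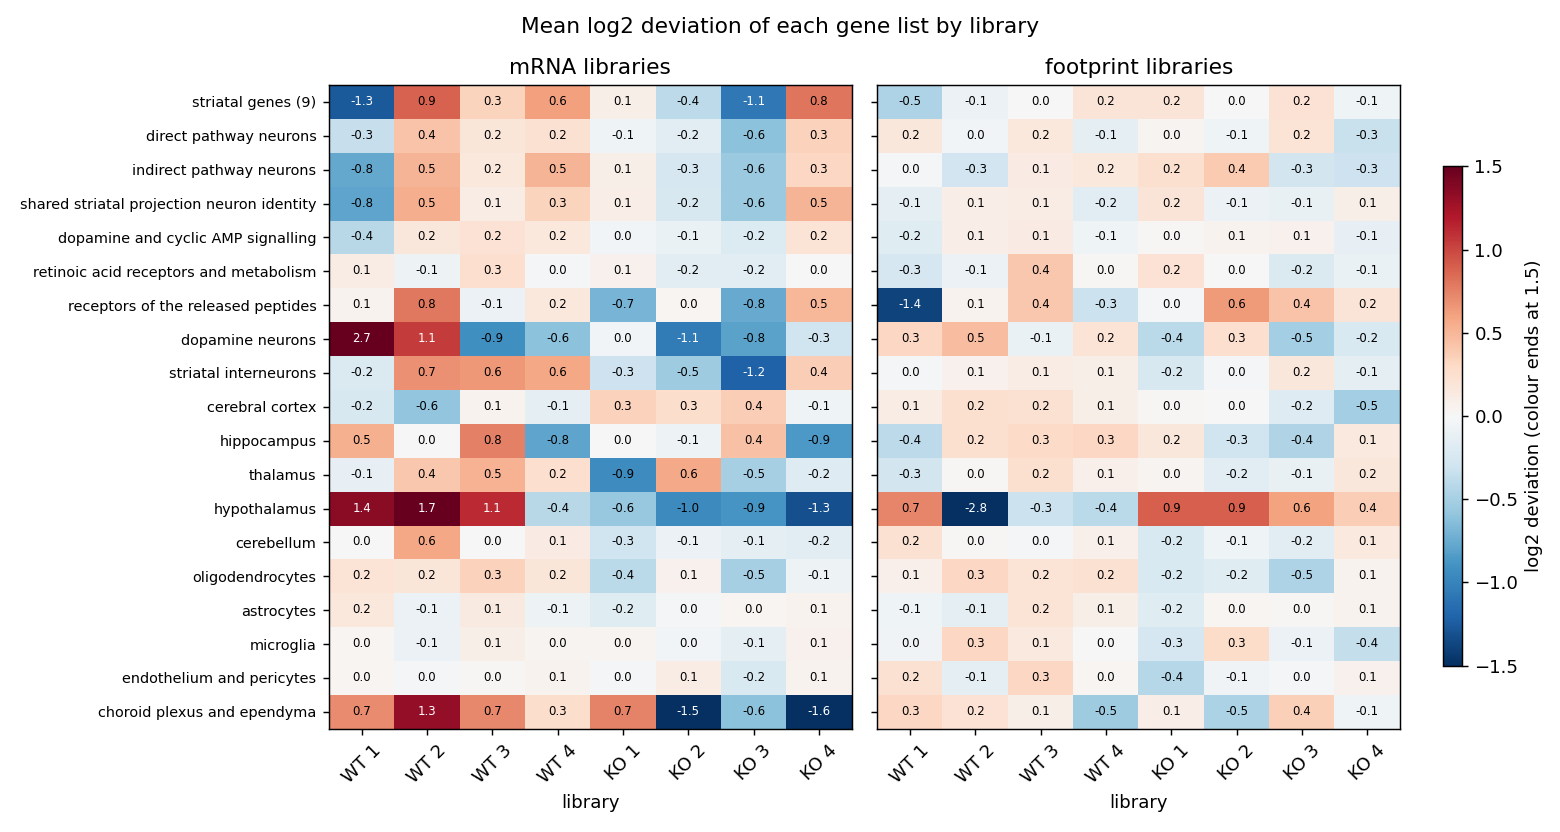
Mean log2 deviation of each gene list per library, in mRNA and in footprints, with red above and blue below the list's own average. In the top row the mRNA of the 9 striatal genes is low in WT 1 and KO 3, while the dopamine neuron row is highest in WT 1.

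The wider striatal lists moved in part with the 9 genes. Of 24 further genes listed as shared by both neuron types, 23 were tested in mRNA. Of these, 16 estimates were below 0 and 7 above, the median was -0.14, and 0 passed in either direction. WT 1 and KO 3 were the lowest pair in 16 of those 23. Gad2, which encodes a GABA-synthesising enzyme, had -0.45 ± 0.20, Six3, a homeobox gene, -0.64 ± 0.50, Kcnj4, a potassium channel gene, 0.18 ± 0.15 and Ptpn5, the striatal-enriched phosphatase gene, -0.21 ± 0.20 (lowest adjusted p = 0.472, edgeR). Of 8 direct pathway genes 6 were tested, with 4 below 0, 2 above, a median of -0.14 and 0 passing. Eya1 had -0.35 ± 0.15 (adjusted p = 0.459, edgeR) and Chrm4, the M4 muscarinic receptor gene, 0.21 ± 0.15. Of 7 indirect pathway genes 6 had a row and were tested, with 4 below 0, 2 above, a median of -0.30 and 0 passing. Sp9, a transcription factor gene of indirect pathway neurons, had -0.79 ± 0.31 and Oprd1, the delta opioid receptor gene, 0.32 ± 0.14 (adjusted p = 0.436 and 0.461, edgeR). In each pathway list WT 1 and KO 3 were the lowest pair for 2 of 6 genes, Pdyn and Slc35d3 in the direct and Adora2a and Gpr6 in the indirect pathway, of which Pdyn, Adora2a and Gpr6 were singled out after their values were seen.

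Lists around the signalling cascade and the peptides held no call in mRNA, and no difference between lists was tested. Of 20 dopamine and cyclic AMP signalling genes 16 were tested, 9 below 0 and 7 above, with a median of -0.02 and 0 passing, and WT 1 and KO 3 were the lowest pair for 6. Gnai2, an inhibitory G protein subunit gene, had -0.18 ± 0.06 and Adcy1, another adenylyl cyclase gene, 0.37 ± 0.20 (adjusted p = 0.406 and 0.547, edgeR). Of 12 retinoic acid genes 11 were tested, 7 below 0 and 4 above, with a median of -0.17 and 0 passing. Rara, the alpha receptor gene, had 0.38 ± 0.16 (adjusted p = 0.461, edgeR). WT 1 and KO 3 were the lowest pair for 0 of these 11. Of 5 receptors for the released peptides 3 were tested, all below 0, with a median of -0.43 and 0 passing. They were Tacr3 (-0.71 ± 0.33), Tacr1 (-0.43 ± 0.37) and Oprk1 (-0.14 ± 0.30), receptors of tachykinins and dynorphin. Oprd1, the delta opioid receptor gene, was counted in the indirect pathway list instead and lay above 0 (0.32 ± 0.14).

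The footprint comparison asked whether ribosome occupancy of the transcripts differs, and again no member passed after adjustment. Penk and Tac1, the peptide precursors, had 1.55-fold and 1.54-fold more footprints in the libraries labelled KO, the 2 largest estimates of the 7 genes tested. The other 5 lay between -0.17 (Adcy5) and 0.56 (Drd1) on the log2 scale. Drd2 and Rarb, with 108 and 89 footprint counts over 8 libraries, were below the count filter. Of the 7 genes tested, 3 were below 0 and 4 above, with a median of 0.09 against 0.00 over all 8476 genes tested, of which 49.6% were above 0. Single libraries decided that split: 1 gene was below 0 without WT 3, without WT 4 or without KO 4, and 4 without WT 1 or without KO 2, where the median was -0.053 and -0.015. Without both WT 1 and WT 2 it was -0.087, with 4 genes below 0.

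Penk footprints were 79.3, 54.3, 74.3 and 106 CPM in WT 1 to 4 and 140.5, 93.4, 123 and 131 CPM in KO 1 to 4. Of the KO libraries 3 lay above every WT library, and KO 2 lay below WT 4, on 64 to 281 counts per library. The change was 0.63 ± 0.21 (95% interval 0.19 to 1.07), with an unadjusted p of 0.00872 and an adjusted p = 0.863 (edgeR). Tac1 footprints were 24.4, 25.4, 32.6 and 19.97 CPM in WT 1 to 4 and 55.0, 30.6, 38.4 and 36.3 CPM in KO 1 to 4. Again 3 KO libraries lay above every WT library, and KO 2 lay below WT 3, on 20 to 89 counts per library. The change was 0.62 ± 0.24 (95% interval 0.11 to 1.14), with an unadjusted p of 0.0212 and an adjusted p = 0.875 (edgeR).

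Drd1 footprints were 19.3, 25.4, 25.3 and 22.6 CPM in WT 1 to 4 and 62.3, 21.6, 42.3 and 17.7 CPM in KO 1 to 4. The WT libraries were close together, while KO 1 and KO 3 lay above all of them, KO 4 below all of them and KO 2 among them. The change was 0.56 ± 0.34 (adjusted p = 0.881, edgeR), and 0.13 without KO 1. Drd2 footprints were 4.53, 6.20, 7.69 and 8.67 CPM in WT 1 to 4 and 8.55, 8.44, 7.69 and 8.83 CPM in KO 1 to 4, on 4 to 23 counts per library. They overlapped, and without the filter their change was 0.26 ± 0.52 (adjusted p = 0.873, edgeR).

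The intracellular effectors had the smallest estimates in footprints. Ppp1r1b footprints were 60.0, 65.4, 69.2 and 73.9 CPM in WT 1 to 4 and 72.1, 85.0, 46.1 and 58.9 CPM in KO 1 to 4, a change of -0.01 ± 0.18 (95% interval -0.40 to 0.39). Pde10a footprints were 56.1, 74.1, 82.0 and 103 CPM in WT 1 to 4 and 80.6, 71.2, 86.5 and 62.8 CPM in KO 1 to 4, a change of -0.08 ± 0.19 (95% interval -0.49 to 0.33). For both genes the groups overlapped over a range of 1.84-fold and 1.83-fold, and the adjusted p-values were 0.996 and 0.979 (edgeR). Adcy5 footprints ran from 36.2 to 80.1 CPM in WT and from 41.7 to 79.4 CPM in KO (log2 change -0.17 ± 0.26). Rgs9 footprints ran from 21.5 to 43.0 CPM in WT and from 13.7 to 57.7 CPM in KO (log2 change 0.09 ± 0.33). Rarb footprints ran from 3.40 to 9.80 CPM in WT and from 1.22 to 10.8 CPM in KO, on 1 to 26 counts per library, and without the filter their change was -0.14 ± 0.59 (adjusted p = 0.952, edgeR).

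Among footprints, too, 0.0% of 8476 genes passed an adjusted p of 0.05. Penk and Tac1 were 2 of 7 members at an unadjusted p under 0.05, against 5.52% of all genes (468) in either direction and 2.88% higher in KO, and DESeq2 called 4 genes (0.0472%), no member among them. Groups were without overlap in 0 of 7 genes, against 3.61% of all genes. The course of the mRNA libraries did not recur in the footprint libraries of the same numbers. WT 1 and KO 3 were the lowest pair in 0 of 7 genes, against 4.41% of all genes. The mean log2 deviation of the 9 genes in footprints was -0.46, -0.09, 0.01 and 0.19 in WT 1 to 4 and 0.19, 0.00, 0.22 and -0.07 in KO 1 to 4, a 1.60-fold range against 4.44-fold in mRNA. That footprint mean includes Drd2 and Rarb, which were below the count filter. Rarb in KO 1 lay at -1.99 on 1 count and pulled the KO 1 mean down, so the 1.60-fold range depends in part on it. Over single genes the range from the lowest to the highest library had a median of 2.59-fold for the 7 members, against 2.36-fold for all genes in footprints. In mRNA it was 4.89-fold for the 9 members against 1.38-fold for all genes.

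Wider lists showed no call in footprints either. Of the genes listed as shared by both neuron types 17 were tested, 6 below 0 and 11 above, with a median of 0.04. The 4 direct pathway genes tested were all below 0 (median -0.16), and of 3 indirect pathway genes 2 were below 0 (median -0.28). The signalling genes split 9 below and 8 above 0 (median -0.04), and the retinoic acid genes 3 and 1 (median -0.12).

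Translational efficiency, footprints relative to mRNA, was compared as an interaction term between genotype and kind of library, fitted over all 16 libraries, and no member passed. All 9 estimates were above 0 in the libraries labelled KO, against 49.8% of the 9673 genes tested, with a median of 0.49 against 0.00 over all genes. Tac1 had 1.06 ± 0.52 (95% interval -0.02 to 2.15, unadjusted p = 0.0543, adjusted p = 0.468, edgeR) and Penk 1.04 ± 0.53 (-0.05 to 2.14, unadjusted p = 0.0608, adjusted p = 0.485, edgeR). The receptors followed with 0.70 ± 0.87 (Drd2) and 0.67 ± 0.64 (Drd1), then Rgs9 with 0.49 ± 0.71. Ppp1r1b (0.29 ± 0.54), Rarb (0.28 ± 0.79), Pde10a (0.15 ± 0.53) and Adcy5 (0.07 ± 0.42) had the smallest estimates. Of all genes 0.0% passed an adjusted p of 0.05, 1052 (10.9%) had an unadjusted p under 0.05, none of them a member, and DESeq2 called 150 (1.55%), again no member. These estimates use the mRNA libraries already described, so they are not separate from the mRNA result, and leaving out single libraries moved their median from 0.16 (without KO 3) and 0.22 (without WT 2) to 1.11 (without KO 4). Of the 9 estimates, 2 were below 0 without WT 2 or without KO 3, and 1 without KO 1.

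The ratios were also read library by library, between footprint and mRNA libraries of the same number. The labels do not say that these come from the same animal, and whether they do was not tested. Each ratio may thus set RNA of different animals side by side. Penk footprints over mRNA, each in RPKM, were 0.918, 0.152, 0.260 and 0.340 in WT 1 to 4 and 0.701, 0.625, 1.52 and 0.368 in KO 1 to 4. The ratio was high in WT 1 and KO 3, where Penk mRNA was low, and low in WT 2. Rgs9 had 1.38, 0.298, 0.431 and 0.434 in WT 1 to 4 and 0.585, 0.929, 2.25 and 0.128 in KO 1 to 4, with the same libraries high. KO 3 had the highest ratio for 7 of the 9 genes. The others were Ppp1r1b, highest in WT 1 at 0.658, and Adcy5, highest in KO 1 at 0.219. KO 3 was also the shallowest footprint library, with 586392 counts, of which 239 fell in the 9 genes. Its ratios rest on 3 (Rarb) to 64 (Penk) footprint counts per gene. As the tables were normalised separately, such ratios compare libraries and not absolute rates.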

How the data were processed

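The authors deposited raw gene counts of 8 footprint and 8 mRNA libraries in 1 table, and RPKM values of each kind in a table of its own, normalised per gene length and library by the authors. Reads were aligned with TopHat2 to mm10, per the submitters' processing notes; the counting tool, strand setting and filters are not given in the sources used here. Counts were tested over the whole table with edgeR 4.0.16 (R 4.3.3) by quasi-likelihood with TMM library sizes, and p-values were adjusted by Benjamini-Hochberg over all genes kept, at a threshold of 0.05. The low-value filter was a mean RPKM of 1 or more for mRNA, applied to footprints as well for translational efficiency, and filterByExpr with a minimum count of 10 for footprints alone. CPM values are counts over TMM-scaled library sizes, and deviations and profile distances use their log2 without a prior count. Standard deviations over libraries, principal components and correlations of same-numbered libraries use log2 CPM with a prior count of 2. Groups came from the library titles. Named genes were the 9 members, Nsun5, up to 4 genes of each wider list with the lowest unadjusted mRNA p, the 5 nearest profiles and the nearest gene of each member. The members and the lists were chosen with earlier results of these data known, so no p was computed over them. The fits were tested on simulated data with 200 changed genes, whose planted changes were larger than any estimate of the members. That test does not show whether changes as small as those of the members would be found. Alternatives were DESeq2 1.42.0, limma 3.58.1 on RPKM with a pseudocount of 0.1 or 1, other size factors, filters, a replicate block and left-out libraries. With 4 libraries a group, an outlying library was looked for with Dixon's test in 36 groups of member values, and 0 were found. Promoter windows are RefSeq's.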

Additional observations from a re-analysis of the deposited data

How the results depend on the processing

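No member was called under any alternative run: the lowest adjusted p among 407 single-gene values was 0.276, and 23 of those values changed sign. Counts of called genes moved instead, from 0 in edgeR to 75 in mRNA, 4 in footprints and 150 in translational efficiency with DESeq2, to 24, 86 and 2 without the filter on low values, and to 3 in footprints of protein-coding genes alone. Leaving out each library in turn gave 0 to 2, 0 to 0 and 0 to 4 called genes in the 3 comparisons. It gave medians of the members of -0.83 to -0.11 in mRNA, -0.053 to 0.39 in footprints and 0.16 to 1.11 in translational efficiency, and 7 to 9, 1 to 4 and 0 to 2 members below 0; without WT 1 and WT 2 together, 1 member was below 0 in translational efficiency. Signs changed within the left-out-library ranges of Drd1 (-0.53 to 0.15) and Pde10a (-0.65 to 0.037) in mRNA, of Ppp1r1b (-0.17 to 0.12), Rgs9 (-0.10 to 0.39), Adcy5 (-0.42 to 0.011) and Pde10a (-0.21 to 0.081) in footprints, and of Pde10a (-0.16 to 0.64) and Adcy5 (-0.15 to 0.42) in translational efficiency. Ppp1r1b in footprints, at -0.01, became 0.016 with DESeq2, 0.010 with relative-log size factors and 0.012 among protein-coding genes; without WT 1 and WT 2, Rgs9 in footprints became -0.087 and Adcy5 in translational efficiency -0.12. The causes were not tested. With the replicate number as a block, the median of the members was -0.33 in mRNA, 0.06 in footprints and 0.39 in translational efficiency, where 1 gene was called. The numbers did not pair WT with KO libraries of the same kind. Correlations of deviations between same-numbered WT and KO libraries ran from -0.238 to 0.0309 in mRNA and from -0.247 to 0.0750 in footprints. Among the KO libraries, 0 of 4 WT libraries were closest to their own number in either kind. Footprint and mRNA libraries of the same number were not correlated with each other. Footprint depth limits Drd2 and Rarb, with 108 and 89 counts, and the labels do not say which animals or which part of the brain each library came from.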

Other observations

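The balance between the pathways was also read as ratios of RPKM within a library, where the shared rise and fall of the striatal genes largely divides out. Drd1 over Drd2 in mRNA was 0.884, 0.934, 0.996 and 0.819 in WT 1 to 4 and 1.09, 1.01, 1.39 and 1.002 in KO 1 to 4. The groups did not overlap, by the narrow gap between 0.996 in WT 3 and 1.002 in KO 4. No test was made, since this was 1 of 5 ratios computed. How often ratios of other gene pairs separate the groups was not counted, so this gap cannot be called unusual. In footprints Drd1 over Drd2 was 2.50 ± 0.536 in WT and 3.04 ± 1.75 in KO (mean ± SD, n = 4), and the groups overlapped. Tac1 over Penk, the ratio of the released peptide precursors of the pathways, was 0.158 ± 0.04998 in WT and 0.141 ± 0.00967 in KO in mRNA, and 0.169 ± 0.0619 and 0.157 ± 0.0228 in footprints, with overlap in both. Adcy5 over Pde10a in mRNA was 3.72 in WT 1 and 3.10 in KO 3, the libraries lowest in striatal mRNA, and 1.86 to 2.47 in the other 6. Groups overlapped in both kinds of library for Adcy5 over Pde10a and for the remaining ratios, Rgs9 over Ppp1r1b and Rarb over Ppp1r1b.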
